A study of Mus musculus with 18 samples.

Results

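The genes described here are the 9 VEGF ligands and receptors *Vegfa*, *Vegfb*, *Vegfc*, *Pgf*, *Flt1*, *Kdr*, *Flt4*, *Nrp1* and *Nrp2*, chosen by name from the 78239 genes of the count tables. They comprise 4 ligands and 5 receptors, and all 9 passed the filter on low counts in both experiments. In the retina, 5 mice received subretinal AAV::*nsHif1a* and 5 received AAV::eGFP between postnatal days 29 and 32, and RNA was taken at 3 weeks post injection (wpi). The cassette encodes a normoxia-stable HIF1A and is driven by the mouse rhodopsin promoter (mOP), so that expression is directed to rods. The labels name the strain C57BL/6J, whereas the study's methods name wild-type 129S6 mice. In vitro, 661W cells were transfected for 20 h with a plasmid carrying *nsHif1a* under the cytomegalovirus promoter or with a plasmid for eGFP, with 4 libraries per group. 661W is a line derived from a mouse retinoblastoma that is used as a photoreceptor-like cell. Nothing in the labels says that the libraries of the cells come from separate cultures, so *p*-values there measure the spread between libraries, which may be technical.

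VEGF ligands are secreted dimers that act on receptor tyrosine kinases carried mainly by endothelial cells. VEGFA binds FLT1 (VEGFR1) and KDR (VEGFR2), VEGFB and PGF bind FLT1, and VEGFC binds FLT4 (VEGFR3) and, once processed, KDR. KDR carries most of the signal for endothelial growth, FLT1 binds VEGFA tightly and is also made as a soluble decoy, FLT4 is the main receptor of lymphatic endothelium, and the neuropilins NRP1 and NRP2 are co-receptors that also bind semaphorins. *Vegfa* is a textbook target of hypoxia-inducible factors, which recognise a short core sequence with the letters ACGTG or GCGTG.

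The upstream sequences of the members are shown because this core is where such a factor would bind. In the 2000 bases before the annotated start, searched on both strands, all 9 members held at least 1 ACGTG and at least 1 GCGTG, but so did 61.8% and 68.7% of 21770 genes for each of these words. The longer word TACGTG, which contains ACGTG, was present upstream of *Vegfa*, *Pgf*, *Flt4* and *Nrp1*, and of 19.6% of the same genes. *Nrp1* held it 3 times, and the one 199 bases upstream overlaps an annotated exon of *Nrp1* and is not printed. The windows below are from GRCm39, written 5′ to 3′ on the strand of the gene, with TACGTG or its reverse complement in capitals. The first is the stretch around the word 918 bases upstream of *Vegfa* (chr17:46344162-46344287, minus strand), and the others are 30-base windows at *Pgf* (chr12:85224632-85224661, minus strand), *Flt4* (chr11:49498428-49498457, plus strand) and *Nrp1* (chr8:129084639-129084668 and chr8:129084878-129084907, plus strand).
Vegfa: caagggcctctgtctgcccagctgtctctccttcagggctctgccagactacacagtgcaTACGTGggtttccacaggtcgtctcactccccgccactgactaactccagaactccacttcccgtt
Pgf: cggttctggaggCACGTAgcttgtcttgtc
Flt4: atggtatgtacaCACGTAtaagtggacatt
Nrp1, 814 bases upstream: ttcttggagttcTACGTGgctggtctgcga
Nrp1, 575 bases upstream: ctgcctatgcttTACGTGgcagactgggtc
A match of letters is a description of the window and not evidence of binding.

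The 18 libraries held 12898220 to 17809585 counts, so that 3 counts correspond to 0.168 to 0.233 CPM (counts scaled to library size by TMM), a limit that covers counting error only. *Hif1a* was at 638 to 698 CPM in the retinas with AAV::eGFP and at 642 to 729 CPM with AAV::*nsHif1a*, and therefore does not check the retinal labels. In the cells *Hif1a* was at 150.0 to 164 CPM with eGFP and at 1222 to 1954 CPM with *nsHif1a*, a log2 fold change (log2FC) of 3.26 (SE 0.134, adjusted *p* = 1.2e-05). *Xist*, the RNA of the inactive X chromosome, had 19492 to 28595 counts in all 5 retinas with AAV::*nsHif1a* and in AAV::eGFP retinas 1 and 2, and 1 to 3 counts in AAV::eGFP retinas 3, 4 and 5. The *Xist* class follows sex, which is thus partly confounded with the vector in the retinal comparison. In the retina the 10 rod markers summed to 49500 to 54600 CPM with AAV::eGFP and to 38800 to 51600 CPM with AAV::*nsHif1a*, and the γ-crystallin genes of the lens took 0.0634% to 0.280% and 0.0956% to 1.82% of counts. The 661W libraries lacked most photoreceptor transcripts: the 10 rod markers summed to 13.4 to 18.5 CPM and the 8 cone markers to 1.10 to 2.25 CPM. The 14 endothelial markers summed to 13.2 to 17.1 CPM in the cells with eGFP and to 14.7 to 18.7 CPM with *nsHif1a*. Of these 14 genes, 6 passed the filter on low counts there, whereas *Cldn5*, *Emcn*, *Erg*, *Sox17* and *Robo4* had no counts in any library of the cells. In these bulk samples, fewer cells of a type and less RNA per cell cannot be told apart.

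Levels were compared between genes as reads scaled to exon length and library size (RPKM). In the control retinas *Vegfa* was the highest member, at 47.6 ± 3.99 RPKM (SD, n = 5), followed by *Kdr* at 34.1 ± 3.29, *Vegfb* at 17.4 ± 0.913, *Flt1* at 9.69 ± 0.801 and *Nrp2* at 3.02 ± 0.172 RPKM. The ranges of these 5 genes did not overlap with their neighbours. *Nrp1* (1.29 ± 0.146 RPKM), *Pgf* (1.21 ± 0.267), *Flt4* (0.892 ± 0.104) and *Vegfc* (0.616 ± 0.196) came last, and each overlapped the gene above or below it in the order. The retina thus held mainly *Vegfa* among the ligands and *Kdr* among the receptors.

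The cells had another order. *Vegfa* was again highest in the eGFP controls, at 31.6 ± 5.12 RPKM (SD, n = 4), but *Nrp2* came next at 22.7 ± 0.428, then *Vegfb* at 13.2 ± 1.56, *Flt4* at 8.94 ± 0.825 and *Nrp1* at 6.48 ± 0.463 RPKM. *Vegfc* (3.81 ± 0.929 RPKM) and *Flt1* (2.53 ± 0.498) overlapped each other. *Pgf* (0.482 ± 0.0795 RPKM) and *Kdr* (0.411 ± 0.0408) were lowest and also overlapped, and *Kdr* rested on 33 to 44 counts per control library. The order depended in part on the gene length used. With the longest annotated transcript in place of all exons, *Nrp2* in the control cells was at 34.4 ± 0.650 RPKM and overlapped *Vegfa*, and *Flt1* in the control retinas was at 15.6 ± 1.29 RPKM and overlapped *Vegfb*. *Vegfd*, a related ligand outside the 9 genes, had 1 to 10 counts per retinal library but 386 to 985 counts per library of the cells, where its log2FC was 0.14 (SE 0.242, adjusted *p* = 0.79).

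**Figure D1:**
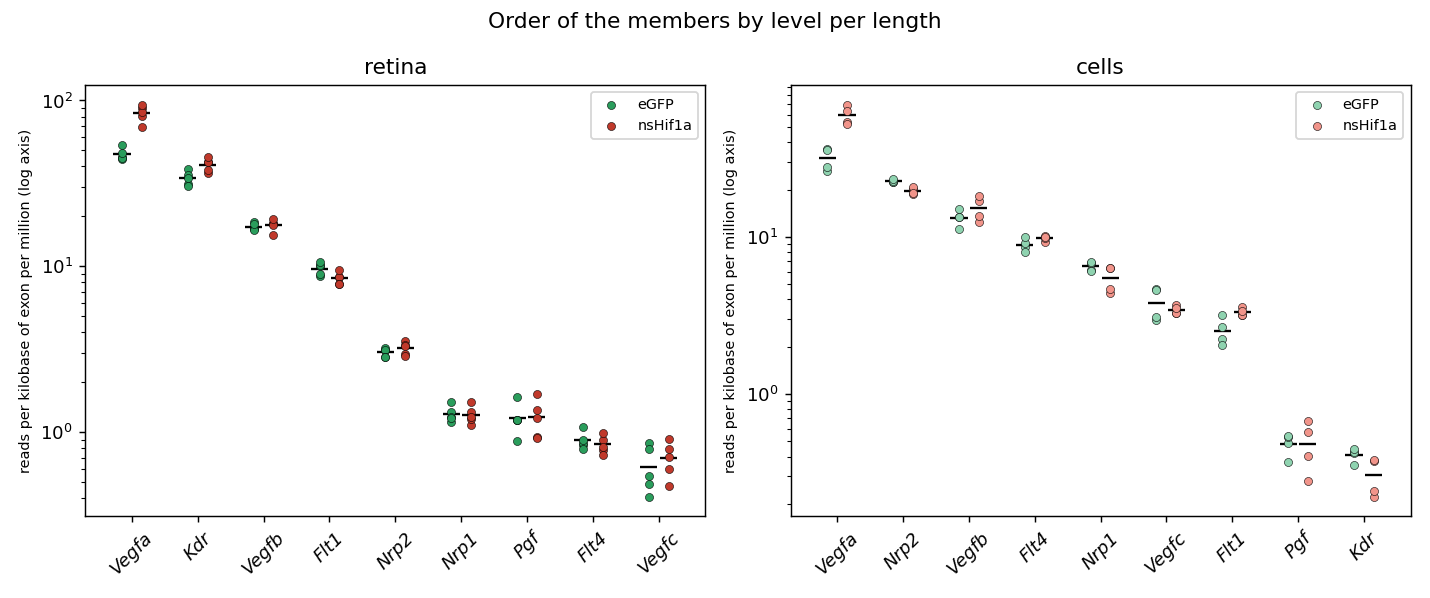
Level per length of the 9 genes (RPKM, log axis) in the retina and in the cells, ordered by the mean of the eGFP controls, with a point per library and a line at each group's mean. *Vegfa* leads in both, *Kdr* is next in the retina at 34.1 and last in the cells at 0.411, and *Nrp2* is next to *Vegfa* in the cells at 22.7.

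The retinal comparison asked which members change when rods express *nsHif1a*. *Vegfa* rose and the other 3 ligands did not pass the test. Genes were called at an adjusted *p* under 0.05 and an absolute log2FC above 0.5, which called 1 of the 9 members against 1.99% of the 18859 genes tested, with 1 member higher against 1.08% of genes and 0 lower against 0.912%. *Vegfa* (ENSMUSG00000023951.19) is encoded on chromosome 17 (minus strand, 46327919 to 46343309 in GRCm39). It was measured at 158, 162, 159, 192 and 171 CPM in the 5 control retinas and 246, 317, 285, 301 and 334 CPM in the 5 retinas with AAV::*nsHif1a*. Every retina with *nsHif1a* was above every control, a separation found for 5.94% of the genes tested. The log2FC was 0.81 (SE 0.0745, 95% limits 0.65 to 0.97, adjusted *p* = 0.00017), a 1.75-fold increase. Among the libraries with *Xist* counts alone the log2FC was 0.89 (adjusted *p* = 0.011), and with the γ-crystallin level as a covariate it was 0.88 (adjusted *p* = 0.00026). All 10 rod markers had a negative log2FC in the same retinas (median -0.21, 0 called, 4 with an adjusted *p* under 0.05), and the part of rod content in the *Vegfa* value was not tested.

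*Vegfb* (chromosome 19, 6958447 to 6965127), a ligand of FLT1, stayed within 34.3 to 38.7 CPM in the control retinas and 32.1 to 40.3 CPM with AAV::*nsHif1a*. Its log2FC of 0.04 had narrow 95% limits of -0.09 to 0.16 (adjusted *p* = 0.77). *Vegfc* (chromosome 8, 54530257 to 54640131), the ligand of lymphatic growth, had 18 to 38 counts per retinal library and a log2FC of 0.16 with limits of -0.36 to 0.68 (adjusted *p* = 0.75). *Pgf* (chromosome 12, 85213409 to 85224564), placental growth factor, had 24 to 55 counts and a log2FC of -0.04 with limits of -0.49 to 0.41 (adjusted *p* = 0.93). At these counts, changes of *Vegfc* and *Pgf* within those limits were not detectable.

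**Figure D2:**
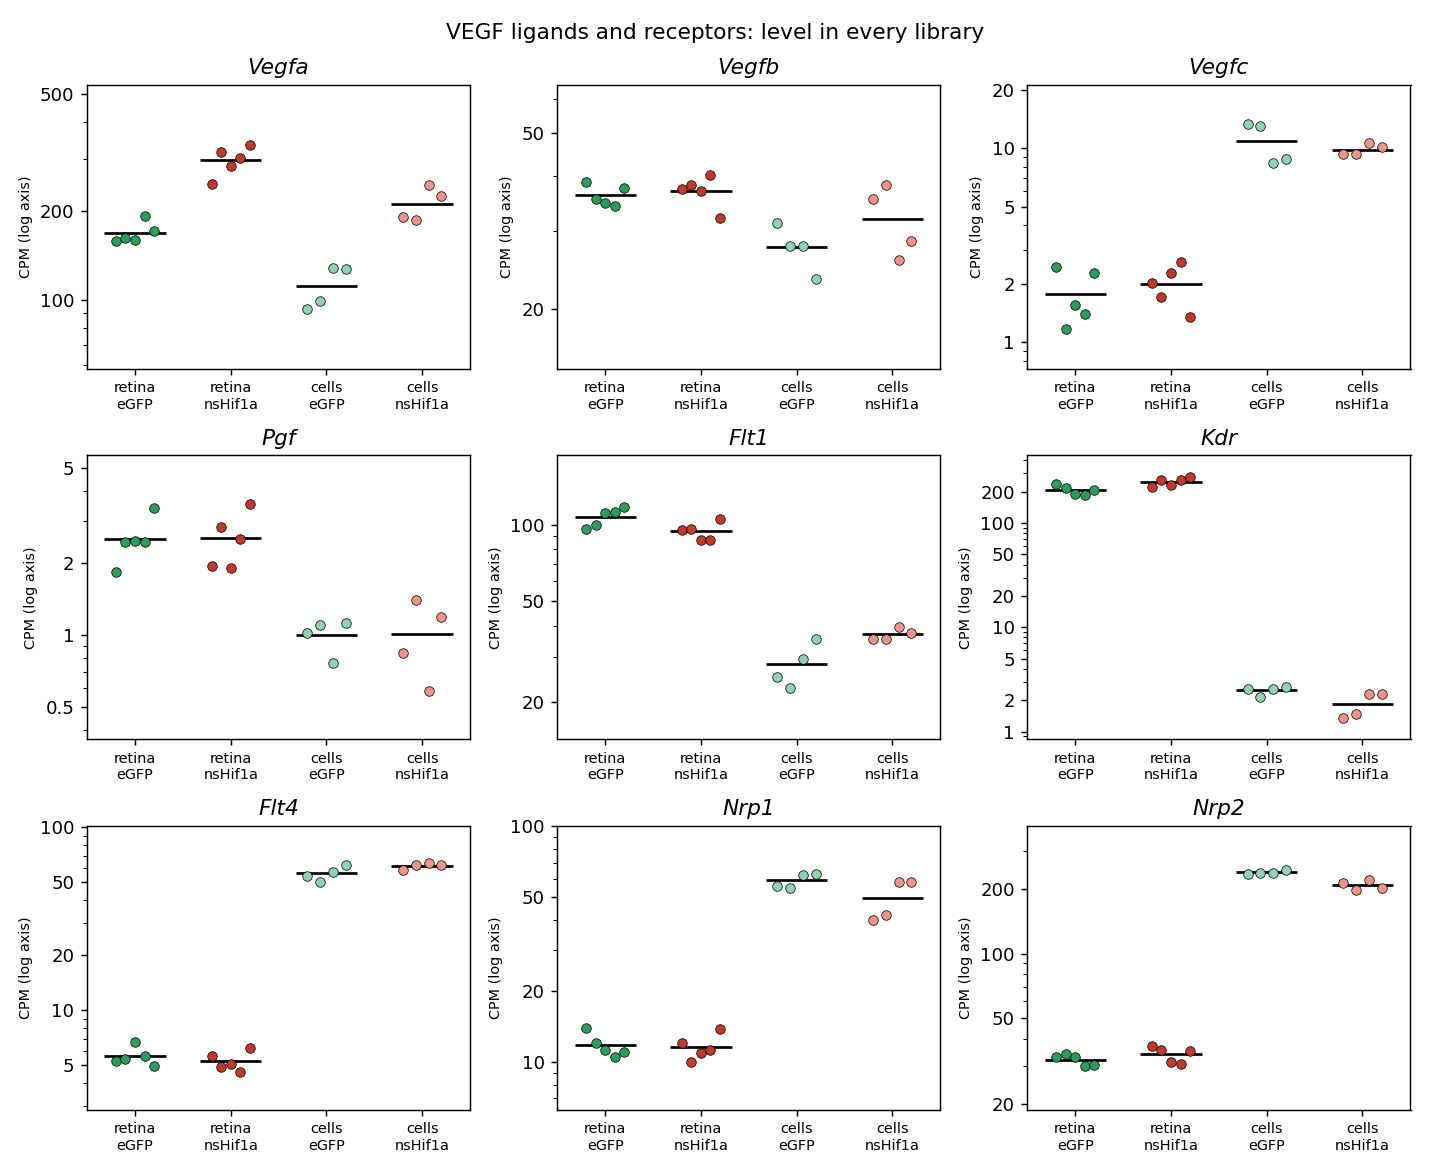
CPM of each of the 9 genes in every library (log axis, a separate scale for each gene), by experiment and group, with a line at each group's mean. *Vegfa* is higher with *nsHif1a* in all libraries of both experiments, at 246 to 334 against 158 to 192 CPM in the retina and 186 to 246 against 93.3 to 128 CPM in the cells.

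No receptor was called in the retina, and the log2FC of the VEGFA receptors had opposite signs and small sizes. *Kdr* (chromosome 5, 76093487 to 76139884) was at 237, 216, 192, 187 and 207.5 CPM in the control retinas and at 222, 259, 233, 258 and 278 CPM with AAV::*nsHif1a*. The groups overlapped, since control retina 1 was above *nsHif1a* retinas 1 and 3. The log2FC was 0.26 (SE 0.0701, 95% limits 0.11 to 0.41, adjusted *p* = 0.049), below the fold threshold. With *Vegfa*, *Kdr* was 1 of 2 members with an adjusted *p* under 0.05, against 5.79% of all genes tested.

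*Flt1* (chromosome 5, 147498414 to 147662826) was at 96.75, 99.9, 111, 113 and 118 CPM in the control retinas and at 95.4, 96.4, 87.4, 86.85 and 106 CPM with AAV::*nsHif1a*. Control retinas 1 and 2 lay within the *nsHif1a* range and controls 3, 4 and 5 lay above it. The log2FC was -0.21 (SE 0.0661, limits -0.36 to -0.07, adjusted *p* = 0.085). Counts per gene do not separate the membrane form of FLT1 from its soluble form.

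Among the controls, *Kdr* and *Flt1* did not overlap between the *Xist* classes, with 2 libraries against 3. Neither did *Nrp1*, at 12.1 to 13.9 CPM with *Xist* and 10.5 to 11.3 CPM without. The difference between the classes was not tested, and the share of all genes separated in this way was not determined. With so few libraries, genes can separate in this way without any difference between the classes. *Kdr* was at 216 and 237 CPM in the control retinas with *Xist* and at 187 to 207.5 CPM in those without, and *Flt1* at 96.75 and 99.9 CPM with *Xist* and 111 to 118 CPM without. Among the libraries with *Xist* alone, 2 controls against 5, the log2FC was 0.14 for *Kdr* (adjusted *p* = 0.42) and -0.07 for *Flt1* (adjusted *p* = 0.65). The endothelial markers leaned the same way as *Kdr*, in that 13 of 14 had a positive log2FC (median 0.27, against -0.002 for all genes) and 0 were called. Their summed level was 65.2 to 107 CPM in the controls and 81.7 to 123 CPM with AAV::*nsHif1a*, and it was 97.5 and 107 CPM in the controls with *Xist* against 65.2 to 81.2 CPM in those without. The part of vascular content in the *Kdr* and *Flt1* values was not tested.

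**Figure D3:**
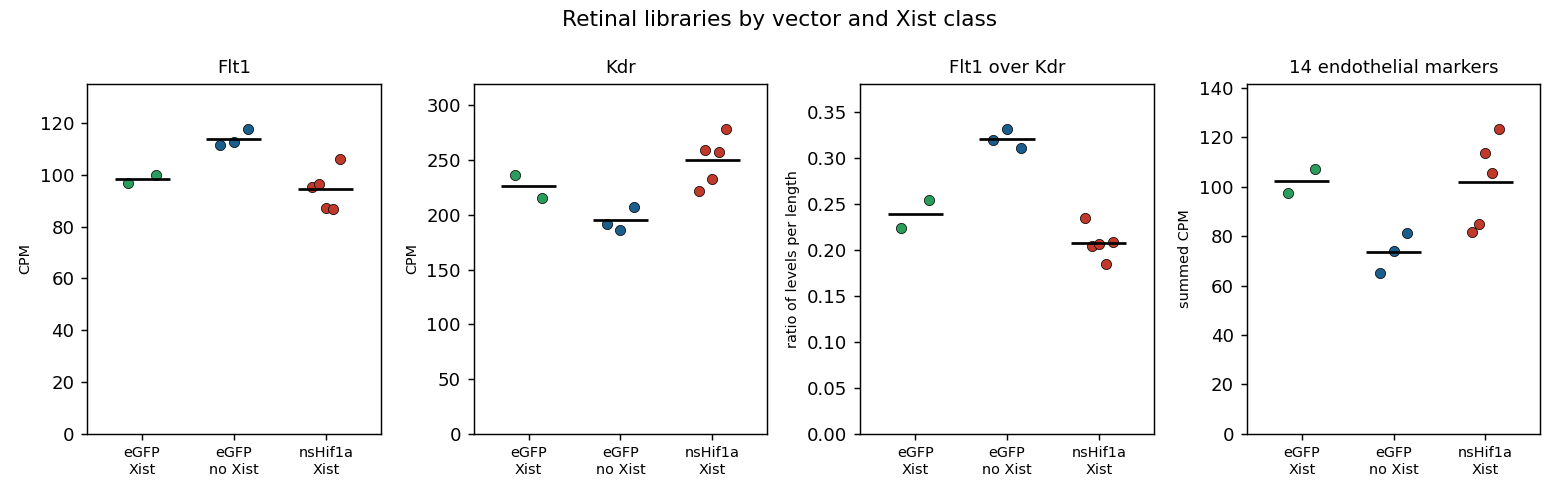
The 10 retinal libraries split by vector and by *Xist* class, with CPM of *Flt1* and of *Kdr*, the ratio of their levels per length and the summed CPM of 14 endothelial markers, all axes from 0, with lines at the means. The 3 controls without *Xist* have the highest *Flt1* over *Kdr* ratios, at 0.311 to 0.331, and the controls with *Xist* are at 0.224 and 0.254, next to 0.185 to 0.235 with *nsHif1a*.

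The remaining receptors stayed close to their control levels. *Flt4* (chromosome 11, 49500090 to 49543582) was at 4.97 to 6.68 CPM in the control retinas and 4.57 to 6.22 CPM with AAV::*nsHif1a*, a log2FC of -0.09 with limits of -0.34 to 0.16 (adjusted *p* = 0.69). *Nrp1* (chromosome 8, 129085085 to 129231082) had a log2FC of -0.06 with limits of -0.27 to 0.16 (adjusted *p* = 0.80). *Nrp2* (chromosome 1, 62742444 to 62857854) had a log2FC of 0.09 with limits of -0.05 to 0.24 (adjusted *p* = 0.43). The limits of these 3 receptors exclude a change as large as that of *Vegfa*. The median log2FC of the 9 members was 0.04, against -0.002 for all genes tested.

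In the cells, *Vegfa* also rose and no receptor was called. The call rule took 1 of the 9 members against 1.27% of the 15962 genes tested, with 1 member higher against 1.21% of genes and 0 lower against 0.0626%. *Vegfa* was at 93.3, 99.0, 128 and 127 CPM in the eGFP libraries and at 191, 186, 246 and 224 CPM with *nsHif1a*. The lowest *nsHif1a* library was above the highest control. The log2FC was 0.91 (SE 0.131, 95% limits 0.62 to 1.20, adjusted *p* = 0.011), a 1.88-fold increase. Replicates 1 and 2 lay below replicates 3 and 4 in both groups. When each of these pairs was summed within its group, the log2FC was 0.93 but the adjusted *p* was 0.84 with 2 summed libraries per group. A limma fit that kept all libraries, with the pair as a covariate, gave 0.92 (adjusted *p* = 4.9e-06). In that fit *Flt1* (0.395, adjusted *p* = 0.017), *Nrp1* (-0.25, adjusted *p* = 0.031) and *Nrp2* (-0.21, adjusted *p* = 0.011) were below the fold threshold. The *p*-values of the fit with the pair as a covariate measure the spread within the pairs, which may be technical.

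The other ligands did not pass the test in the cells. *Vegfb* was at 31.3, 27.8, 27.8 and 23.35 CPM with eGFP and at 35.45, 38.1, 25.7 and 28.4 CPM with *nsHif1a*, a log2FC of 0.21 with limits of -0.08 to 0.50 (adjusted *p* = 0.39). It was 0.0068 and 0.0070 without *nsHif1a* replicate 1 or 2 (adjusted *p* = 0.98) and 0.39 and 0.385 without replicate 3 or 4 (adjusted *p* = 0.012 and 0.017), all below the fold threshold. *Vegfc* was at 13.3, 13.1, 8.41 and 8.78 CPM with eGFP and at 9.34, 9.35, 10.6 and 10.1 CPM with *nsHif1a*. Its controls thus fell in separate pairs on either side of the *nsHif1a* libraries, and the log2FC was -0.12 (limits -0.53 to 0.30, adjusted *p* = 0.76). *Pgf* had 10 to 20 counts per library and a log2FC of -0.03 with limits of -0.68 to 0.63 (adjusted *p* = 0.97).

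*Nrp2*, the most abundant receptor of the cells, was slightly lower with *nsHif1a*. It was at 236, 237, 238 and 246 CPM with eGFP and at 212, 199, 220.2 and 202 CPM with *nsHif1a*, so that the groups did not overlap. With *Vegfa* it was 1 of 2 members whose groups were apart, a separation found for 13.6% of the genes tested in the cells. The log2FC was -0.21 (SE 0.0421, limits -0.30 to -0.11, adjusted *p* = 0.039), below the fold threshold, and *Vegfa* and *Nrp2* were the 2 members with an adjusted *p* under 0.05 against 2.49% of all genes. In a fit that paired the libraries by replicate number the log2FC did not move and the adjusted *p* was 0.076.

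*Flt1* in the cells was at 24.98, 22.75, 29.5 and 35.3 CPM with eGFP and at 35.6, 35.3, 39.65 and 37.3 CPM with *nsHif1a*. The groups overlapped at control 4, and the log2FC was 0.41 (SE 0.130, limits 0.12 to 0.70, adjusted *p* = 0.13). Without eGFP replicate 4 the log2FC was 0.57 and the adjusted *p* 0.018, and without eGFP replicate 2 they were 0.27 and 0.23. *Kdr* had 33 to 44 counts per library with eGFP and 21 to 39 with *nsHif1a*, a log2FC of -0.48 (limits -0.96 to -0.01, adjusted *p* = 0.24). Without *nsHif1a* replicate 3 or 4 it was -0.77 in each case (adjusted *p* = 0.016), and without *nsHif1a* replicate 1 or 2 it was -0.15 and -0.16 (adjusted *p* = 0.66). *Flt4* had a log2FC of 0.14 with limits of -0.03 to 0.30 (adjusted *p* = 0.33).

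*Nrp1* in the cells was at 55.9, 54.8, 62.4 and 62.8 CPM with eGFP and at 40.1, 42.2, 57.96 and 58.0 CPM with *nsHif1a*. Replicates 1 and 2 with *nsHif1a* were the lowest libraries, whereas replicates 3 and 4 lay within the control range. Its log2FC over all replicates was -0.28 (limits -0.55 to -0.02, adjusted *p* = 0.21), and it ranged from -0.49 (adjusted *p* = 0.0018) to -0.05 (adjusted *p* = 0.77) without *nsHif1a* replicate 3 or replicate 1. The fits within each pair of replicates, chosen after the data were seen, gave -0.44 from replicates 1 and 2 (adjusted *p* = 6.4e-06) and -0.11 from replicates 3 and 4 (adjusted *p* = 0.28). *Vegfc* had -0.50 (adjusted *p* = 0.0032) and 0.27 (adjusted *p* = 0.27) in these fits, and *Flt1* had 0.56 (adjusted *p* = 6.1e-06) and 0.27 (adjusted *p* = 0.055). *Vegfb* had 0.30 (adjusted *p* = 0.0033) and 0.07 (adjusted *p* = 0.75). *Vegfa*, at 0.97 and 0.88, and *Nrp2*, at -0.20 and -0.19, had an adjusted *p* under 0.05 in both. Each of these fits has 2 libraries per group, so its *p*-values measure the spread within a pair, which may be technical. The difference between the pairs was not tested, and the labels do not say what sets them apart.

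**Figure D4:**
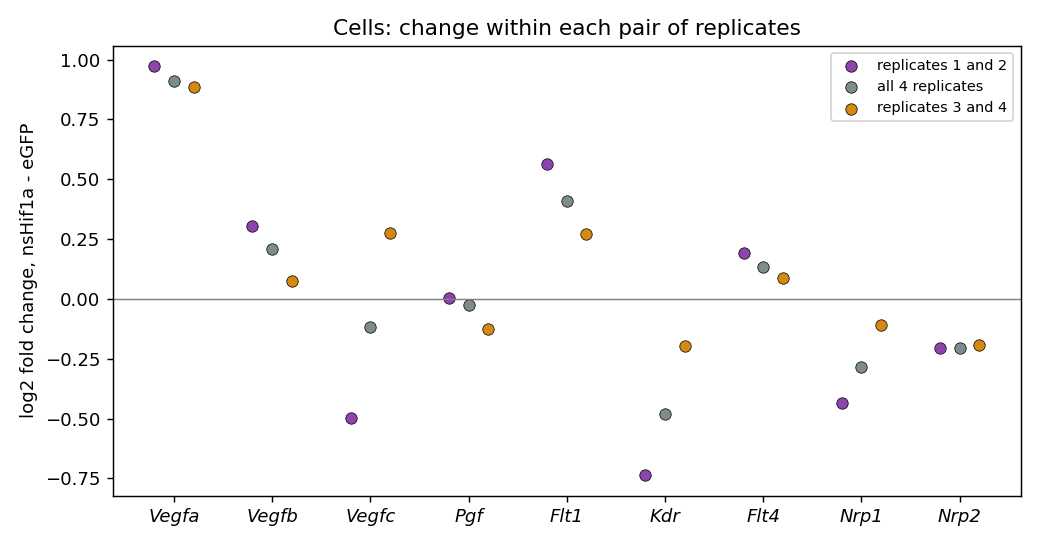
Log2FC of the 9 genes in the cells from replicates 1 and 2 alone, from all 4 replicates and from replicates 3 and 4 alone, as points without error bars. The pairs give 0.97 and 0.88 for *Vegfa* and -0.20 and -0.19 for *Nrp2*, but -0.50 and 0.27 for *Vegfc* and -0.44 and -0.11 for *Nrp1*.

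The change in the retina was compared with that in the cells by a contrast over all 18 libraries. For *Vegfa* no difference was found: the retinal log2FC less that in the cells was -0.15 (SE 0.149, 95% limits -0.46 to 0.16, adjusted *p* = 0.68). The paper reports that the vector reached only part of the retinal area, with expression limited to rods. Retinal values thus include tissue without the transgene, and promoter and time after delivery also differ between the experiments. The contrast therefore compares bulk values, and the response per expressing cell was not tested. The contrast passed for 2 of the 9 members, *Flt1* and *Nrp2*, against 2.33% of 20999 genes tested. The difference was -0.65 for *Flt1* (SE 0.141, limits -0.95 to -0.36, adjusted *p* = 0.022), whose log2FC was below 0 in the retina and above 0 in the cells, and 1.25% of genes passed in this direction. It was 0.30 for *Nrp2* (SE 0.075, limits 0.14 to 0.45, adjusted *p* = 0.045), and 1.08% of genes passed in that direction. Neither passed when the retinal libraries were restricted to those with *Xist*, where the difference was -0.51 for *Flt1* (adjusted *p* = 0.12) and 0.22 for *Nrp2* (adjusted *p* = 0.26). *Flt1* also missed the threshold without retinal eGFP replicate 4 (-0.61, adjusted *p* = 0.0504), cells eGFP replicate 1 (-0.53, adjusted *p* = 0.072) or cells eGFP replicate 2 (-0.505, adjusted *p* = 0.058). In the paired fit, *Flt1* remained at -0.59 (adjusted *p* = 0.046) and *Nrp2* was at 0.28 (adjusted *p* = 0.095). Without 1 library, the *Nrp2* difference stayed between 0.25 and 0.34 and its adjusted *p* was under 0.05 in 6 of 18 fits. For *Kdr* the difference of 0.65 had limits of -0.10 to 1.40 (adjusted *p* = 0.38; DESeq2 gave 0.69 with an adjusted *p* of 0.024), and the other 5 members had adjusted *p* of 0.45 to 0.99.

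**Figure D5:**
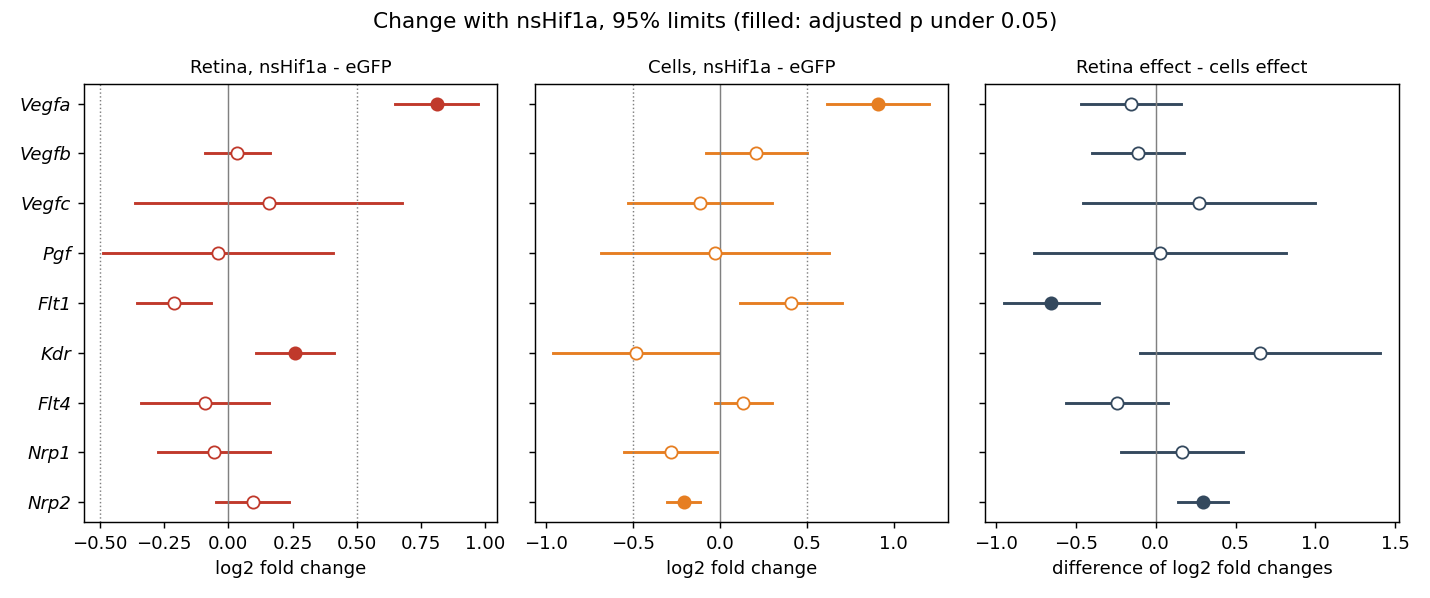
Log2FC (*nsHif1a* less eGFP) of the 9 genes in the retina and in the cells, and the difference between these effects, with 95% limits, dotted lines at the fold threshold and filled points for an adjusted *p* under 0.05. *Vegfa* is past the threshold in both (0.81 and 0.91), and *Flt1* (-0.65) and *Nrp2* (0.30) pass the contrast between the experiments in the main fit.

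The balance of ligand and receptor transcripts was described from the levels per length, without a test. *Vegfa* made up 68.7% to 75.0% of the summed RPKM of the 4 ligands in the control retinas and 78.0% to 84.3% with AAV::*nsHif1a*. In the cells its share was 56.7% to 70.8% with eGFP and 70.3% to 81.0% with *nsHif1a*. These shares leave out *Vegfd*, which was at 11.65 to 19.6 RPKM in the control cells and at 0.0249 to 0.307 RPKM in the control retinas. With *Vegfd* counted, the share of *Vegfa* in the cells would be lower. The ratio of *Vegfa* to the sum of *Flt1* and *Kdr* was 0.938 to 1.33 in the control retinas and 1.54 to 1.75 with AAV::*nsHif1a*, without overlap. In the cells this ratio was 9.87 to 11.7 with eGFP and 15.4 to 17.6 with *nsHif1a*, also without overlap. The *Vegfa* groups were themselves apart in both experiments, so these ratios are not a separate result. Ratios and shares with *Flt1*, *Nrp1* or *Nrp2* also depend on the gene length used. *Kdr* made up 67.1% to 73.2% of the receptor RPKM in the control retinas and 71.8% to 76.9% with AAV::*nsHif1a*, whereas *Nrp2* made up 48.8% to 57.7% of it in the cells.

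Other genes of the pathway were examined in lists. Of 13 tested genes for semaphorins, plexins and related partners of the neuropilins, 1 was called higher in the retina, against 1.08% of all genes, and 0 were called lower. It was *Plxnd1*, a semaphorin receptor known from endothelial cells, at 7.74 to 13.2 CPM in the controls and 11.8 to 21.5 CPM with AAV::*nsHif1a* (log2FC 0.63, SE 0.148, adjusted *p* = 0.028). With *Xist* libraries alone its log2FC was 0.48 (adjusted *p* = 0.24), and it was not called without control 3, 4 or 5 or *nsHif1a* retina 2 or 3 (log2FC 0.52 to 0.64, adjusted *p* = 0.060 to 0.070). Of 27 genes that act downstream of the receptors, such as kinases and adaptors, 1 was called lower, against 0.912% of all genes, and 0 were called higher. It was *Sh2d2a*, an adaptor that binds KDR and is also known from T cells, at 57 to 102 counts in the controls and 38 to 82 counts with AAV::*nsHif1a* (log2FC -0.68, SE 0.182, adjusted *p* = 0.0497), and it missed the threshold in 9 of 10 fits without 1 library.

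No gene was called in the retina among 12 tested genes that endothelial cells are known to raise in response to VEGF (median log2FC 0.17, 10 of 12 above 0), 10 genes for VEGF processing and matrix binding (median -0.04) or 10 genes for VEGF-binding proteins and inhibitors of angiogenesis (median -0.07). In the cells, 0 genes of all 5 lists were called. Their medians ranged from -0.11 for the processing and matrix genes to 0.06 for the neuropilin partners. *Plxnd1* was at 76.8 to 94.1 CPM in the cells with eGFP, above its retinal level, and had a log2FC of 0.13 there (adjusted *p* = 0.36).

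The genes whose pattern was most like that of *Vegfa* were found from the root mean square difference of log2 CPM over the 18 libraries, each gene less its eGFP mean in the same experiment, among 14122 genes tested in both. The nearest were *Tbl2* (0.176), *Ero1a* (0.182), *Phospho1* (0.188), *Gm9790* (0.210) and *Ankrd37* (0.210). *Ero1a* encodes an oxidase of disulfide formation in the endoplasmic reticulum, and *Gm9790* is annotated as a processed pseudogene, so its reads may belong to a similar gene. *Tbl2* had a log2FC of 0.86 in the retina (adjusted *p* = 0.00027) and 0.68 in the cells (adjusted *p* = 0.00079), and *Ero1a* had 0.64 (adjusted *p* = 0.0018) and 1.07 (adjusted *p* = 0.012). These values follow from the selection, which used the same libraries, and are a description only. The other 8 members were at 0.594 (*Flt1*) to 0.736 (*Nrp1*), around the median of all genes at 0.656.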

How the data were processed

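RNA was measured by stranded mRNA sequencing in 18 libraries, grouped by their labels. The authors aligned reads to GRCm39 with Rsubread, counted them per gene with featureCounts on the antisense strand (gencode M36 basic) and deposited whole-number counts without normalization, with 12898220 to 17809585 counts per library. The members and lists were chosen with earlier results of these data known.

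From the counts, low genes were removed (filterByExpr, minimum count 10) and libraries scaled by TMM in edgeR 4.0.16. The voomWithQualityWeights values were fitted in limma 3.58.1 (R 4.3.3), as in the study's methods, per experiment and, for the difference of effects, over 18 libraries, with Benjamini-Hochberg adjustment over all genes tested. Adjusted *p*-values are from limma, and log2 CPM used a prior count of 2. Named genes were the 9 members, *Hif1a*, list genes called in an experiment and the 5 genes nearest to *Vegfa*. Lengths, starts and sequences came from gencode M39 on GRCm39, which held 78168 of the 78239 genes. The fits were tested on simulated data. The same values were recomputed by DESeq2 1.42.0, by quasi-likelihood in edgeR, with other weights, size factors, filters and thresholds, covariates and the replicate block, and with the omission of each library.

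In the cells, libraries with the same replicate number deviated together (Pearson's r of 0.227 to 0.269 for the 4 numbers). These values cannot show pairing by number, because the libraries of the cells fell into the same sets of replicates in both groups. Whether libraries with different numbers within a set deviated together as well was not tested. In the retina r was -0.148 to 0.138. The fits reported here did not pair libraries by number unless stated, and the replicate block was run as an alternative in both experiments.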

Additional observations from a re-analysis of the deposited data

Results flagged for a closer look

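The change of *Flt1* passed the contrast between the retina and the cells in the main fit. The log2FC was -0.21 in the retina and 0.41 in the cells, neither of them called, and the difference was -0.65 (limma, adjusted *p* = 0.022). The change of *Nrp2* passed as well, at 0.09 in the retina and -0.21 in the cells, a difference of 0.30 (limma, adjusted *p* = 0.045). Without 1 library, the limma adjusted *p* was under 0.05 in 15 of 18 fits for *Flt1* and in 6 of 18 for *Nrp2*. Both missed the threshold with the retinal libraries that have *Xist* counts alone. Of 36 groups of libraries examined, 1 for each member and group, 0 held a library that stood apart from the rest by Dixon's criterion.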

How the results depend on the processing

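Within an experiment, *Vegfa* was higher with *nsHif1a* in every fit run and was called in all but 3. Those were the retina and the cells with an absolute log2FC above 1, which called 0 members there and for the difference, and the summed replicate pairs, which called 0 members in the cells. Without a fold threshold 2 members were called in the retina (*Vegfa* and *Kdr*) and 2 in the cells (*Vegfa* and *Nrp2*), and replicates 1 and 2 of the cells alone called 2 (*Vegfa* and *Flt1*). For the difference of effects, 1 member passed in place of 2, *Flt1*, with edgeR, without sample weights, without the filter on low counts and with the replicate block, and 0 passed with the retinal *Xist* libraries alone, whereas DESeq2 passed 3 (*Flt1*, *Kdr* and *Nrp2*). Without 1 library, the count was 1 to 2 in the cells and 0 to 3 for the difference, where the fit without cells *nsHif1a* replicate 4 passed *Nrp1* as well (0.44, adjusted *p* = 0.0496).

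The log2FC of *Pgf* in the retina turned positive with edgeR (0.0226), DESeq2 (0.0256), no sample weights (0.0218), the *Xist* covariate (0.195), *Xist* libraries alone (0.197) and the γ-crystallin covariate (0.195). In the cells, *Pgf* was at 0.0057 from replicates 1 and 2 and *Vegfc* at 0.27 from replicates 3 and 4. Leaving out 1 library gave ranges across 0 for *Pgf* in the retina (-0.16 to 0.13), in the cells (-0.15 to 0.13) and for the difference (-0.15 to 0.20), for *Nrp1* in the retina (-0.12 to 0.0121) and the difference (-0.0101 to 0.44), for *Vegfc* in the cells (-0.34 to 0.10), and for the differences of *Vegfa* (-0.28 to 0.0232) and *Vegfb* (-0.33 to 0.0238). Of these results, only the *Nrp1* difference passed in a fit without 1 library, in 1 of 18, and the cause was not tested.

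The replicate block gave 0.82 for *Vegfa* in the retina and 0.92 in the cells and changed no call by both thresholds in either experiment among the members. With it, *Kdr* in the retina (adjusted *p* = 0.12) and *Nrp2* in the cells (0.076) missed an adjusted *p* of 0.05, and *Plxnd1* (0.059) and *Sh2d2a* (0.20) were no longer called in the retina. *Kdr* in the retina was under 0.05 in 3 of 10 fits without 1 library, and *Nrp2* in the cells in 4 of 8. With 10 to 55 counts per library, *Pgf* was limited by depth, as was *Vegfc* in the retina.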

Other observations

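The libraries of the cells fell into 2 sets that the labels do not name. Within a group, the median squared difference between libraries over counting noise was 1.47 to 1.59 for replicates 1 and 2 or 3 and 4. It was 3.62 to 8.32 between the sets, and 2.09 to 6.65 between retinas of a group. No library was an identical copy of another, but whether the libraries of a set are technical replicates was not tested. Microglial markers in the retina had a positive log2FC for 8 of 8 genes (median 0.89, 0 called), and their summed level was 26.1 to 138 CPM in the controls and 46.3 to 129 CPM with AAV::*nsHif1a*.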
